A study of Mus musculus with 3 samples.

Results

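The platelet-derived growth factor (PDGF) genes of mouse skin wounds are the subject here, namely the ligand genes *Pdgfa*, *Pdgfb*, *Pdgfc* and *Pdgfd*, the receptor genes *Pdgfra* and *Pdgfrb*, and the receptor-like gene *Pdgfrl*. They were chosen by name as the whole gene family, and all 7 were found by Ensembl ID among the 32285 genes counted. The study followed cell populations of healing skin in single-cell RNA profiles made with the droplet method 3, 7 and 14 days after wounding (Days 3, 7 and 14). The animals were young adult male C57BL/6J mice, an inbred laboratory strain, with no transgene and no treatment other than the wound, and there was no unwounded skin. Each day was 1 library of unsorted cells from pooled wounds (the study's methods name 4 samples), so a difference between days has no replicate check and compares 2 libraries. The injury is called incisional in the series text, whereas the methods of the study describe full-thickness punch wounds of the back.

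PDGF ligands act as dimers on receptor tyrosine kinases of mesenchymal cells, and in skin they are known for drawing in fibroblasts and for attaching pericytes, the contractile cells around small vessels. The protein of *Pdgfa* acts mainly through the alpha receptor, whereas that of *Pdgfb* binds both receptors. The proteins of *Pdgfc* and *Pdgfd* are secreted in a latent form that proteases must cut, after which the former acts mainly on the alpha and the latter mainly on the beta receptor. *Pdgfrl* encodes a protein that resembles the outer part of these receptors and lacks the kinase.

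The libraries held 5158, 22924 and 16611 cell barcodes on Days 3, 7 and 14, with 38133650, 120940799 and 112713257 UMIs (molecular barcodes that count captured mRNA molecules once). Pairs of libraries shared 43 (Days 3 and 7), 19 (Days 3 and 14) and 111 (Days 7 and 14) barcodes. After filters on quality and doublets 4378, 19636 and 13514 cells remained, and cell classes were set from marker genes without use of any PDGF gene. Fibroblast-like cells numbered 409, 5927 and 6661, macrophage-like cells 2554, 8383 and 3068, pericyte-like cells 10, 183 and 435, and endothelial cell-like cells 13, 241 and 242. All 8 fibroblast markers, 10 macrophage markers, 9 pericyte markers and 8 endothelial markers had a UMI in their own class on every day. The classes were named from these lists, so this does not test the names. All 8 fibroblast markers also had a UMI in macrophage-like cells on every day. Fibroblast-like cells of Day 3 were far deeper than later ones, with a median of 44327 UMIs per cell against 10329 and 10270, and 58.2% and 40.6% of them belonged to clusters 5 and 20, whereas clusters 4, 12 and 9 held most of the class on Day 14. Levels are given as CPM, the usual scaling of a gene's UMIs by the summed UMIs of the same cells. Values in parentheses are 95% intervals that cover counting error only, and without replicates no test was possible and no p-value is given.

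In the mm10 (GRCm38) annotation of GENCODE M21, *Pdgfa* lies on the minus strand of chromosome 5 (138976014–138997370) and *Pdgfra* on the plus strand of the same chromosome (75152292–75198215). *Pdgfb* lies on the minus strand of chromosome 15 (79995874–80014977) and *Pdgfc* on the plus strand of chromosome 3 (81036416–81214040). *Pdgfd* lies on the plus strand of chromosome 9 (6168584–6378850) and *Pdgfrl* on the plus strand of chromosome 8 (40926212–40990785). The same-strand overlaps of the 7 genes were 1 microRNA gene within *Pdgfb* and 1 within *Pdgfra*, and 5 of the 7 also overlap a gene of the opposite strand.

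*Pdgfra*, the alpha receptor gene, was a gene of fibroblast-like and mesenchymal cell-like cells. In fibroblast-like cells its level was 257 CPM (250–265) on Day 3, 221 CPM (218–225) on Day 7 and 159 CPM (156–162) on Day 14. The intervals of the 3 days did not overlap on this scale, but the Day 7 over Day 3 ratio was 0.01 when scaled without the 50 most abundant genes, so no direction is given between these days. Day 14 was the lowest. Mesenchymal cell-like cells, a cluster led by *Prlr*, *Slc26a7* and *Igfbp3*, held 286 CPM (199–398) on Day 7 from 64 cells and 253 CPM (232–275) on Day 14 from 719 cells. Those leading genes are on the marker list of this class, which came from the study's cluster table of these same libraries. The *Pdgfra* level of mesenchymal cell-like cells overlapped that of fibroblast-like cells on Day 7 and lay above it on Day 14. Fibroblast-like cells held 99.2%, 96.7% and 92.4% of all *Pdgfra* UMIs on Days 3, 7 and 14, and mesenchymal cell-like cells held 4.5% on Day 14.

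In the other classes *Pdgfra* stayed low, at 8.43 CPM in macrophage-like and 21.8 CPM in pericyte-like cells on Day 7. Per UMI of the 8 fibroblast markers, *Pdgfra* in macrophage-like cells stood near its frequency in fibroblast-like cells, with log2 ratios of -0.06 (-0.82 to 0.60), 0.28 (0.08–0.47) and 0.24 (-0.08 to 0.55) for Days 3, 7 and 14. For *Pdgfrb* the same ratios were 1.49 (0.61–2.24), 0.60 (0.35–0.85) and 0.42 (0.06–0.77). The part of free RNA in these low counts was not tested. The summed fibroblast markers in macrophage-like cells stood at 409, 3674 and 5277 CPM on Days 3, 7 and 14, and the *Pdgfra* level there went from 1.48 to 8.43 and 6.91 CPM.

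After cells were thinned to 500 UMIs, 11.7%, 9.72% and 7.91% of fibroblast-like cells had a *Pdgfra* UMI on Days 3, 7 and 14, against 95.4%, 81.6% and 71.3% before thinning. Among neutrophil-like cells, which should lack the receptor, 0 of 868 had one on Day 3 (the limit that 3 cells give is a share of 0.346%), and 0.91% had one on Day 7. Before thinning the neutrophil-like cells held 3 *Pdgfra* UMIs on Day 3 and 33 on Day 7. Median depth was 711 UMIs in neutrophil-like and 10329 UMIs in fibroblast-like cells on Day 7, so the shares before thinning cannot be set beside each other.

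*Pdgfrb*, the beta receptor gene through which pericytes are recruited to vessels, was highest in pericyte-like cells. There it stood at 928 CPM (874–984) on Day 7 and 732 CPM (693–772) on Day 14, and the 10 pericyte-like cells of Day 3 gave 795 CPM (696–904). Fibroblast-like cells held 68.4 CPM (64.8–72.1), 115 CPM (112–117) and 109 CPM (107–112) on Days 3, 7 and 14. Mesenchymal cell-like cells held 65.4 CPM (28.2–129) on Day 7, which overlapped fibroblast-like cells, and 188 CPM (170–207) on Day 14, which lay above them. Among named classes with at least 50 cells, the order on Day 14 was thus pericyte-like, mesenchymal cell-like, fibroblast-like and endothelial cell-like cells, the last at 33.6 CPM (25–44.3), with no overlap between neighbours. Pericyte-like cells were few, and fibroblast-like cells held 84.1%, 84.0% and 78.9% of all *Pdgfrb* UMIs against 14.3%, 12.8% and 13.7% in pericyte-like cells.

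The log2 ratio of *Pdgfrb* in pericyte-like over fibroblast-like cells was 2.75 (2.66–2.83) on Day 14. For *Pdgfra* the same ratio was -3.42 (-4.02 to -2.87), and for *Pdgfrl* it was -2.85 (-3.17 to -2.55). Of the ligands, *Pdgfa* stood 5.60 log2 units higher in pericyte-like cells (5.44–5.77), at 366 against 7.54 CPM. Of all genes with at least 50 UMIs over both sides, 36.0% differed by at least 2-fold between these classes, and 5 of the 7 PDGF genes did. These include *Pdgfb*, at 7.16 against 0.59 CPM from 13 and 41 UMIs, which had the 50 UMIs needed only over both classes together. *Pdgfra* had 27 UMIs in pericyte-like cells, so it had the 50 UMIs needed only through fibroblast-like cells, where it was higher. *Pdgfc* (0.59) and *Pdgfd* (-0.19) lay within 2-fold, and the median ratio was 0.18 over all genes and 0.59 over the 7.

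The receptors can pair with themselves or with each other, so cells with UMIs of both were counted after thinning to 1000 UMIs. On Day 7, 128 of 5921 fibroblast-like cells had both (2.16%), 17.3% had *Pdgfra* alone and 8.60% had *Pdgfrb* alone. The product of the single shares is 2.10%, which lies within the interval of the joint share (1.81–2.57). On Day 14 the shares were 2.05% with both, 12.6% with *Pdgfra* alone and 8.86% with *Pdgfrb* alone, and the product of 1.60% lay below the interval of the joint share (1.72–2.42). Thinning lowers these shares. Without it, 49.1% of 5927 fibroblast-like cells on Day 7 and 44.2% of 6661 on Day 14 had both. *Pdgfra* alone was then in 32.5% and 27.1%, and *Pdgfrb* alone in 8.74% and 15.3%. Pericyte-like cells differed from fibroblast-like cells, with *Pdgfrb* alone after thinning in 55.0% of 180 cells on Day 7 and in 45.4% of 403 cells on Day 14. *Pdgfra* alone was found in 2.22% and 1.24% of them. Without thinning it was alone in 0 of 183 and in 3 of 435 pericyte-like cells, and 14 (7.65%) and 18 (4.14%) had both.

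**Figure D1:**
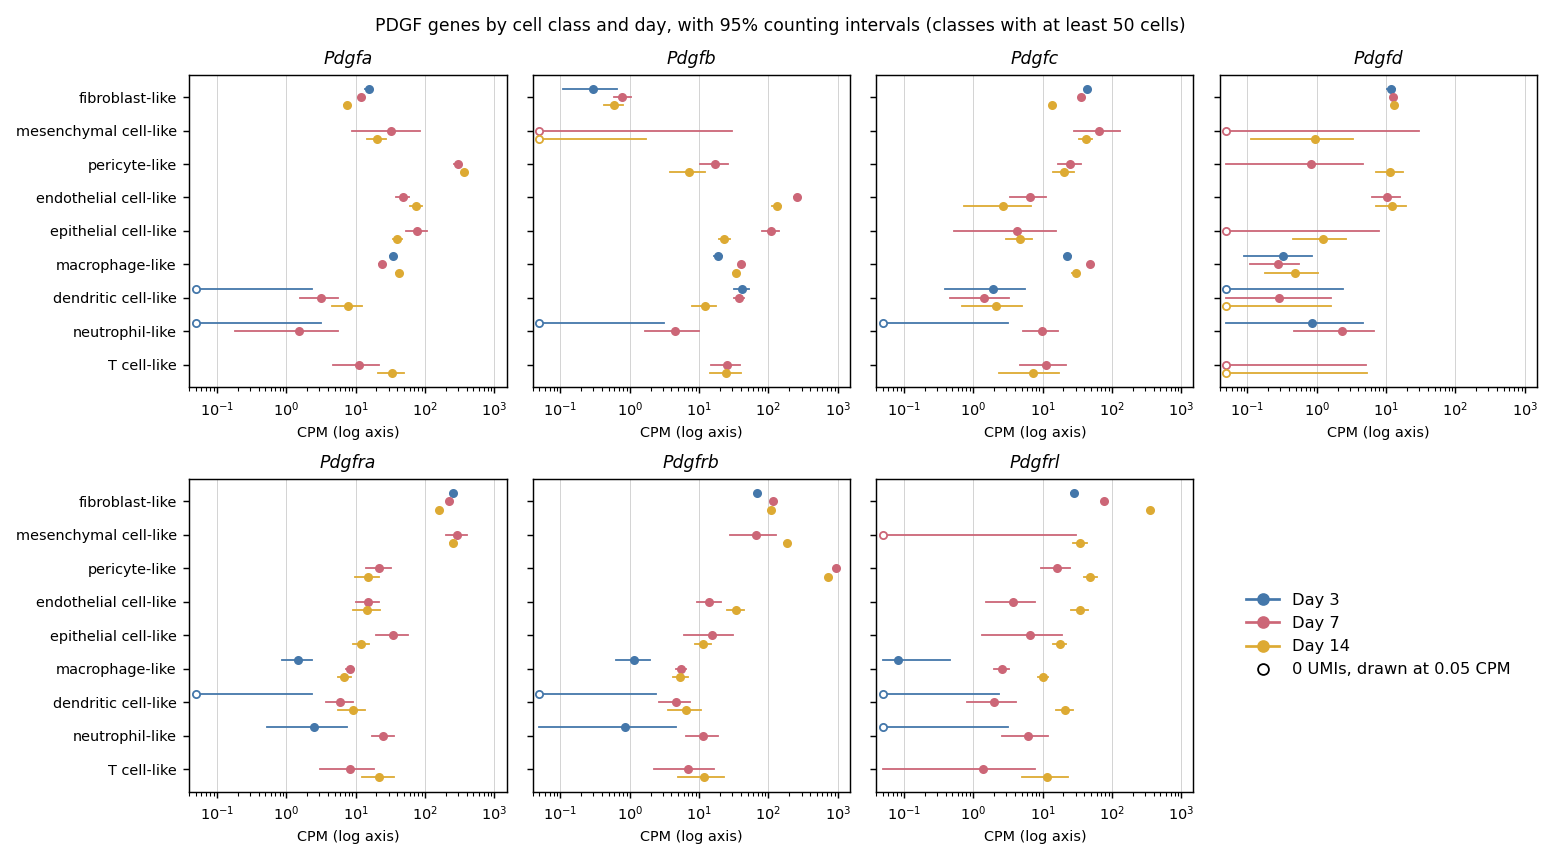
Levels of the 7 PDGF genes in CPM (log axis) by cell class (rows) on Days 3, 7 and 14 (colours), with lines for 95% counting intervals, which are cut at 0.05 CPM. Only classes with at least 50 cells on that day are drawn, and open points mark 0 UMIs. On Days 7 and 14 *Pdgfrb* and *Pdgfa* are highest in pericyte-like cells and *Pdgfb* in endothelial cell-like cells, classes with too few cells to be drawn on Day 3, and *Pdgfrl* in fibroblast-like cells goes from 28.2 to 354 CPM.

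*Pdgfrl*, the gene of the kinase-free receptor-like protein, showed the largest difference between days of the family in fibroblast-like cells. Its level there was 28.2 CPM (26.0–30.7) on Day 3, 77.5 CPM (75.3–79.7) on Day 7 and 354 CPM (350–358) on Day 14. The log2 ratio was 1.46 (1.33–1.58) for Day 7 over Day 3 and 2.19 (2.15–2.24) for Day 14 over Day 7. Fibroblast-like cells held 99.6%, 97.1% and 97.3% of its UMIs. Other classes also held more on Day 14 than on Day 7, with 49.0 against 15.9 CPM in pericyte-like, 35.0 against 3.80 CPM in endothelial cell-like and 10.2 against 2.58 CPM in macrophage-like cells. Per fibroblast marker UMI the Day 14 levels of these 3 classes lay at log2 ratios of -0.04 (-0.35 to 0.26), -0.27 (-0.70 to 0.12) and -0.35 (-0.61 to -0.10) to fibroblast-like cells. The fibroblast markers there summed to 20364, 17127 and 5277 CPM at median depths of 3937, 3892 and 3709 UMIs, and whether these *Pdgfrl* counts are free RNA was not tested. Mesenchymal cell-like cells, with 34.7 CPM (27.3–43.6) on Day 14, were low in *Pdgfrl* although high in *Pdgfra* and *Pdgfrb*.

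Against the other genes of fibroblast-like cells, the differences between days were uneven across the family. For Day 14 over Day 7, 15% of 13852 genes differed by at least 2-fold, and of the 7 PDGF genes *Pdgfrl* was higher and *Pdgfc* lower by that much. The log2 ratio of *Pdgfc* was -1.40 (-1.51 to -1.29), from 35.8 to 13.6 CPM, and that of *Pdgfa* was -0.67 (-0.83 to -0.51), from 12 to 7.54 CPM. Over 13 alternatives the *Pdgfa* ratio lay between -0.72 and -0.32. *Pdgfra* followed at -0.48 (-0.51 to -0.44), *Pdgfb* was at -0.43 (-1.06 to 0.20) with under 1 CPM on both days and at -1.03 (-1.67 to -0.41), past 2-fold, with each library clustered alone, and *Pdgfd* was at 0.07 (-0.07 to 0.21). *Pdgfrb* was at -0.07 (-0.12 to -0.02), but its ratio was 0.12 when scaled by the median of ratios and 0.16 in cells with at least 500 genes, so no direction is given for it. The median ratio of all genes compared was -0.19 on this scale, and the median of the 7 genes was -0.43. Relative to that shift *Pdgfra* and *Pdgfc* were still lower in the class as a whole.

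For Day 7 over Day 3, 19.9% of genes differed by at least 2-fold in fibroblast-like cells, and *Pdgfrl* and *Pdgfb* were the PDGF genes among them. *Pdgfb* rested on 6 UMIs on Day 3 and 50 on Day 7, at 0.30 and 0.79 CPM. It thus had the 50 UMIs needed only through Day 7, the day where it was higher. Its ratio of 1.39 (0.17–2.90) was 0.41 (-0.60 to 1.56) in cells with at most 5% mitochondrial UMIs and 0.84 in cells with at least 500 genes, both short of 2-fold, and 2.22 (1.26–3.38) with a class set per cell without clusters. The median ratio was -0.11 over all genes and 0.10 over the 7. *Pdgfrb* was 0.74 log2 units higher on Day 7 (0.66–0.83). *Pdgfra* had a ratio of -0.22 (-0.26 to -0.17), which turned to 0.01 when scaled without the 50 most abundant genes. *Pdgfc* had a ratio of -0.29 (-0.40 to -0.17), which was -0.06 (-0.17 to 0.05) under that scaling and -0.09 (-0.20 to 0.02) with the median of ratios. *Pdgfa* had one of -0.37 (-0.56 to -0.17), which was -1.13 with each library clustered alone and -0.14 when scaled without the 50 most abundant genes. The share of the class that each cluster held and the depth of its cells moved with the day as given above, and their part in these ratios was not tested beyond the values within clusters given next.

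Clusters with at least 100 fibroblast-like cells on both days allow a comparison within a cluster. For Day 14 over Day 7 these were clusters 6 (led by *Cxcl9*, *Cxcl13* and *Smpd3*), 7 (*Akr1c18*, *Edn1* and *Pla1a*) and 9 (*Gdf10*, *Mgp* and *Ptn*). *Pdgfrl* was higher on Day 14 in each, with log2 ratios of 0.53 (0.40–0.65), 1.26 (1.10–1.43) and 0.78 (0.63–0.94), all smaller than the 2.19 of the whole class. *Pdgfra* was lower in each on the CPM scale, by ratios of -0.27 (-0.36 to -0.17), -0.50 (-0.62 to -0.39) and -0.67 (-0.78 to -0.55). The median of all genes in the class was -0.19 on that scale, and no other scaling is given within clusters. *Pdgfc* was lower in cluster 7 (-0.92, -1.27 to -0.58), whereas its interval held 0 in clusters 6 (-0.10, -0.42 to 0.24) and 9 (-0.38, -0.87 to 0.14). *Pdgfrb* was at -0.24, 0.00 and -0.47. *Pdgfa*, lower on Day 14 in the class, was at 0.74 (-0.25 to 1.86), -0.32 (-1.34 to 0.60) and 0.55 (0.03–1.10) in the 3 clusters, so none was lower beyond counting error and cluster 9 was higher. Clusters 4 and 12, which made up 30.3% and 21.3% of fibroblast-like cells on Day 14 and 1.55% and 0.57% on Day 7, held *Pdgfrl* on Day 14 at 556 CPM (547–566) and 427 CPM (415–438). Against all cells, the leading genes of cluster 12 include the pericyte marker *Ndufa4l2*, and those of cluster 13 include the mesenchymal cell marker *Crabp1*. Neither set includes a fibroblast marker, although all 8 fibroblast markers counted toward the name of both clusters.

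For Day 7 over Day 3, clusters 5 (led by *Saa3*, *Cxcl5* and *Ereg*) and 20 (led by cell cycle genes such as *Ube2c* and *Top2a*) could be compared. *Pdgfrb* was higher on Day 7 in both, by 0.30 (0.16–0.44) in cluster 5 and 1.31 (1.18–1.44) in the cycling cluster 20. *Pdgfrl* was higher by 0.85 (0.67–1.04) and 0.94 (0.70–1.18). *Pdgfra* was at -0.26 (-0.33 to -0.18) and -0.13 (-0.22 to -0.04) on the CPM scale, and the intervals of *Pdgfc* held 0 in both clusters. *Pdgfa* moved in opposite ways, at -0.50 (-0.80 to -0.20) in cluster 5 and 0.80 (0.47–1.13) in cluster 20.

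**Figure D2:**
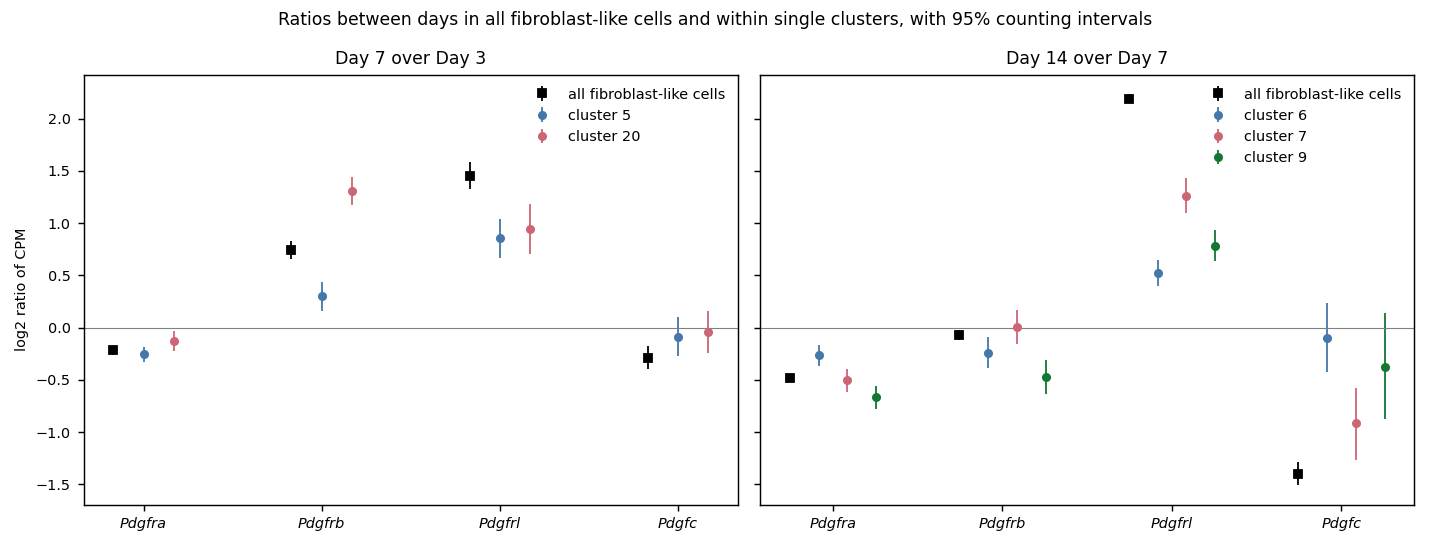
Log2 ratios of CPM between days (vertical axis) for *Pdgfra*, *Pdgfrb*, *Pdgfrl* and *Pdgfc*, in all fibroblast-like cells (squares) and within the clusters with at least 100 cells on both days (circles), with 95% counting intervals. The Day 14 over Day 7 ratio of *Pdgfrl* is 2.19 in the class and 0.53 to 1.26 within clusters 6, 7 and 9.

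*Pdgfa*, whose protein is mainly an alpha receptor ligand, was highest in pericyte-like cells, at 295 CPM (265–328) on Day 7 and 366 CPM (339–395) on Day 14. The 10 pericyte-like cells of Day 3 gave 784 CPM (686–893) from 230 UMIs, of which 1 cell held 61. Endothelial cell-like cells held 47.8 CPM (38.3–58.9) and 74.7 CPM (61.4–89.9) on Days 7 and 14, and epithelial cell-like cells, which are the keratinocytes of the epidermis and hair follicle by their markers, held 75.8 CPM (52.8–105) and 40.2 CPM (34.7–46.2). Macrophage-like cells stood at 34.7 CPM (31.5–38.2), 23.8 CPM (22.0–25.8) and 41.6 CPM (38.1–45.3) on Days 3, 7 and 14. Neutrophil-like cells held 0 UMIs on Day 3 and 2 UMIs on Day 7.

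The *Pdgfa* UMIs of a library came from several classes. Macrophage-like cells held 41.5%, 31.7% and 22.7% of them on Days 3, 7 and 14, fibroblast-like cells 30.4%, 39.5% and 23.1%, and pericyte-like cells 22.7%, 18.3% and 29.1%. These shares move with the number of cells of each class that were captured and with the depth of those cells. On Day 3 the median was 44327 UMIs in fibroblast-like and 4274 UMIs in macrophage-like cells. Within epithelial cell-like cells of Day 14, the basal cluster led by *Krt14* and *Krt5* held 62.3 CPM (52.9–72.8) and the differentiated cluster led by *Krtdap* and *Krt1* held 16.5 CPM (11.7–22.6).

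Against fibroblast-like cells of the same day, epithelial cell-like cells held more *Pdgfa* on Day 14, with a log2 ratio of 2.41 (2.17–2.65). *Pdgfb* was also higher (5.31, 4.78 to 5.86, 23.1 against 0.59 CPM), and the other 5 PDGF genes were lower by at least 2-fold. Between these distant classes 45.6% of genes differed by at least 2-fold, with medians of 0.21 over all genes and -3.25 over the 7.

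*Pdgfb*, whose protein binds both receptors and which endothelium uses to attract pericytes, was highest in endothelial cell-like cells. It stood there at 256 CPM (234–280) on Day 7 and 131 CPM (113–151) on Day 14, a log2 ratio of -0.97 (-1.21 to -0.72). The 13 endothelial cell-like cells of Day 3 gave 590 CPM (490–705), but 62.0% of those 121 UMIs were in 1 cell. Cluster 25, led by *Fabp4*, *Selp* and *Pecam1*, held 322 CPM (293–354) and 191 CPM (164–221) on Days 7 and 14. Cluster 30, led by *Ccl21a*, *Nts* and *Mmrn1* and with the lymphatic genes *Prox1* and *Lyve1*, held 65.6 CPM (44.6–93.1) and 26.0 CPM (14.2–43.7). *Pdgfb* was thus lower on Day 14 than on Day 7 and lower in cluster 30 than in cluster 25, without overlap of the intervals in any of these pairs.

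Macrophage-like cells held *Pdgfb* at 18.6 CPM (16.2–21.1), 39.7 CPM (37.3–42.2) and 34.0 CPM (30.8–37.4) on Days 3, 7 and 14. As the more numerous class they held 53.4%, 55.3% and 47.2% of its UMIs, against 28.7%, 25.7% and 21.7% in endothelial cell-like cells. Dendritic cell-like cells stood at 40.9 CPM (31.5–52.2), 38.0 CPM (31.8–45.1) and 12.1 CPM (8.02–17.4). In the 54 epithelial cell-like cells of Day 7 the level was 108 CPM (80.4–143), and it was 23.1 CPM (19.1–27.8) on Day 14. Fibroblast-like cells held under 1 CPM on each day and mesenchymal cell-like cells held 0 UMIs on Days 7 and 14.

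On Day 14 the log2 ratio of *Pdgfb* in endothelial cell-like over macrophage-like cells was 1.95 (1.69–2.20). *Pdgfc* had a ratio of -3.47 (-5.36 to -2.11) and *Pdgfa* one of 0.84 (0.54–1.14). With 4 against 372 UMIs, *Pdgfc* had the 50 UMIs needed only through macrophage-like cells, where it was higher. Of all genes compared, 38.2% differed by at least 2-fold between these classes, and 5 of 6 PDGF genes with enough UMIs did, among them the receptor genes *Pdgfra* (1.10), *Pdgfrb* (2.64) and *Pdgfrl* (1.78), which are low in both classes. The fibroblast markers were also higher in endothelial cell-like cells, at 17127 against 5277 CPM, as were the 9 pericyte markers, at 419 against 16.9 CPM. The part of either list in these 3 ratios was not tested.

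*Pdgfc*, which encodes a latent alpha receptor ligand, was shared by fibroblast-like, macrophage-like and mesenchymal cell-like cells. Fibroblast-like cells held 43.6 CPM (40.8–46.6), 35.8 CPM (34.3–37.3) and 13.6 CPM (12.7–14.5) on Days 3, 7 and 14. Macrophage-like cells held 22.7 CPM (20.1–25.5), 48.3 CPM (45.7–51.1) and 29.9 CPM (26.9–33.1). On the CPM scale the 2 classes thus changed places, with fibroblast-like cells higher on Day 3 and macrophage-like cells higher on Days 7 and 14. No other scaling is given for this pair of classes. Mesenchymal cell-like cells stood at 65.4 CPM (28.2–129) and 41.8 CPM (33.5–51.4) on Days 7 and 14, and pericyte-like cells at 25.1 CPM (17–35.9) and 20.4 CPM (14.4–28.1). Fibroblast-like cells held 74.9%, 62.3% and 63.1% of the *Pdgfc* UMIs. In endothelial cell-like, dendritic cell-like and epithelial cell-like cells the level stayed under 7 CPM on Days 7 and 14.

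*Pdgfd*, which encodes a latent beta receptor ligand, was low in fibroblast-like cells, at 11.7 CPM (10.2–13.3), 12.6 CPM (11.7–13.5) and 13.2 CPM (12.3–14.1) on Days 3, 7 and 14, with overlapping intervals between neighbouring days on this scale. Over 13 alternatives its log2 ratio lay between 0.02 and 0.33 for Day 7 over Day 3. For Day 14 over Day 7 it lay between -0.05 and 0.26. Cluster 9 was lower on Day 14 than on Day 7 (-0.80, -1.43 to -0.15), whereas clusters 6 (0.21, -0.14 to 0.56) and 7 (-0.03, -0.42 to 0.35) had intervals that held 0. These cells held 95.9%, 95.9% and 93.9% of its UMIs. Endothelial cell-like cells stood at 10.3 CPM (6.21–16.1) and 12.1 CPM (7.18–19.1) on Days 7 and 14, which does not differ from fibroblast-like cells beyond counting error. Pericyte-like cells held 1 UMI on Day 7 (0.84 CPM, 0.02 to 4.67) and 21 UMIs on Day 14 (11.6 CPM, 7.16 to 17.7). In macrophage-like cells the gene was at under 0.5 CPM on every day.

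**Figure D3:**
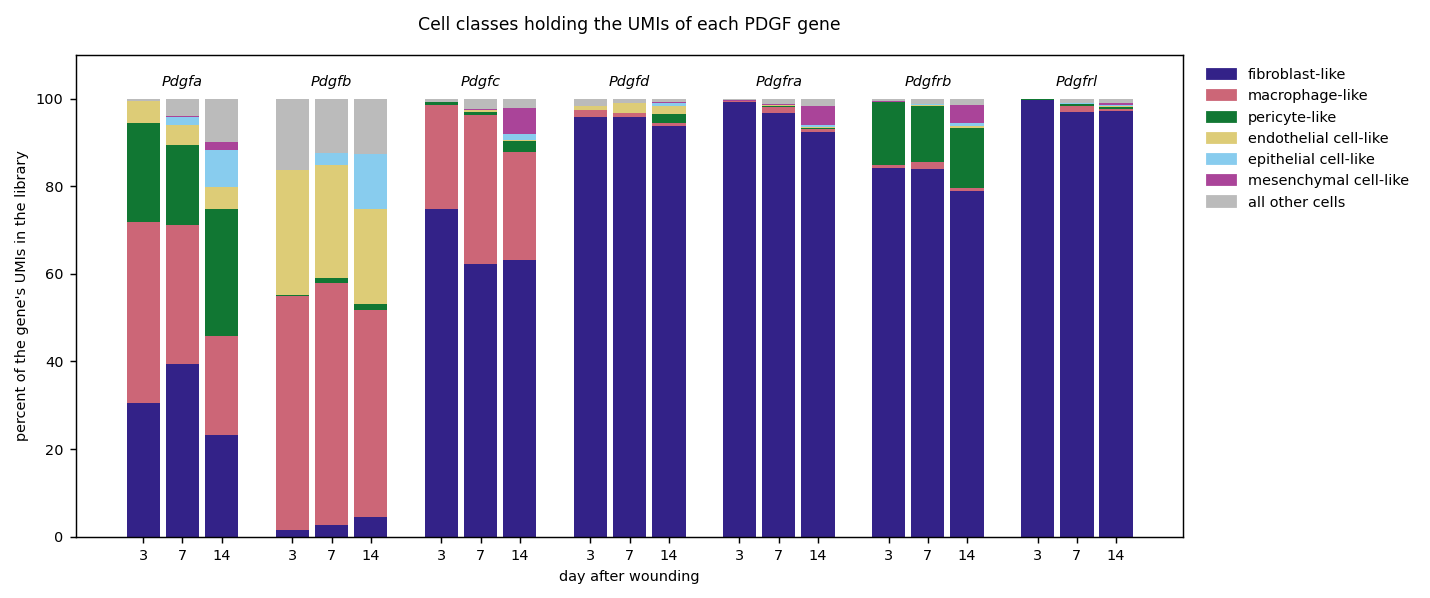
Percent of the UMIs of each PDGF gene (vertical axis) held by each cell class (colours) in the libraries of Days 3, 7 and 14. Fibroblast-like cells hold over 92% of the *Pdgfra*, *Pdgfrl* and *Pdgfd* UMIs, whereas *Pdgfa* and *Pdgfb* come from several classes.

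Macrophage-like cells were compared between days as a class. For Day 7 over Day 3, 13.6% of genes differed by at least 2-fold, and the ligand genes *Pdgfb* (1.10, 0.89 to 1.31) and *Pdgfc* (1.09, 0.90 to 1.29) were higher by that much. *Pdgfc* was at 0.93 (0.72–1.15), short of 2-fold, in cells with at most 5% mitochondrial UMIs. The receptor genes also passed 2-fold, but they had the 50 UMIs needed only through Day 7, with 18 and 216 UMIs of *Pdgfra*, 14 and 140 of *Pdgfrb* and 1 and 66 of *Pdgfrl*. The fibroblast markers in this class went from 409 to 3674 CPM, and their part in these counts was not tested. *Pdgfa* had a ratio of -0.54 (-0.73 to -0.36), with -1.12 within cluster 0 and intervals that held 0 within clusters 3 and 10. Cluster 3, led by *Arg1*, *Chil3* and *Rsad2*, made up 69.9% of the class on Day 3 and 5.50% on Day 7. Within it *Pdgfb* was higher on Day 7 by 0.85 (0.32–1.35), and the interval of *Pdgfc* held 0 (0.26, -0.48 to 0.94). In cluster 0, led by *Mmp12*, *Cd36* and *Arg1*, *Pdgfb* was higher by 0.94 (0.49–1.42) and *Pdgfc* again had an interval with 0. *Pdgfc* was higher on Day 7 within cluster 10, led by *Cbr2*, *Cd163* and *Ednrb* (0.89, 0.49 to 1.31).

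For Day 14 over Day 7, 9.47% of genes differed by at least 2-fold in macrophage-like cells, and of the 6 PDGF genes with enough UMIs *Pdgfrl* did (10.2 against 2.58 CPM), while the fibroblast markers went from 3674 to 5277 CPM. The median ratio was -0.13 over all genes and -0.12 over the 6. *Pdgfa* was higher by 0.80 (0.63–0.98), and *Pdgfc* was at -0.69 (-0.86 to -0.52) and *Pdgfb* at -0.22 (-0.39 to -0.06). *Pdgfc* was lower on Day 14 within clusters 2 (-0.93, -1.20 to -0.66) and 10 (-1.03, -1.40 to -0.68). It was also lower within clusters 1 (-0.68), 16 (-1.24) and 27 (-1.37). The 127 cells of cluster 15 on Day 14 held 0 *Pdgfc* UMIs, too few to compare with its 7.04 CPM on Day 7. *Pdgfb* was higher within clusters 1 (0.77, 0.46 to 1.06) and 10 (1.21, 0.64 to 1.79). Within cluster 15 it was lower (-2.65, -7.99 to -0.09), at 2.43 against 15.3 CPM, with the same 127 cells on Day 14. Its interval held 0 in cluster 2 (0.03, -0.40 to 0.47), which made up 46.8% of the class on Day 14, and in clusters 16 (-0.29, -0.77 to 0.19) and 27 (-0.20, -1.25 to 0.84). *Pdgfa* was higher within clusters 1 (0.61), 2 (1.18) and 10 (1.18), and its intervals held 0 in clusters 15, 16 and 27.

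Within a day the ligands divided the macrophage-like cells. On Day 7 *Pdgfb* was highest in sub-cluster 2, led by *Cx3cr1*, *Cd72*, *Tmem119*, *Itga6* and *Lpcat2*, at 81.9 CPM (73.4–91.1), and in sub-cluster 6, led by *Mmp12*, *Fabp4*, *Atp6v0d2*, *Lpl* and *Mfge8*, at 72.1 CPM (62.5–82.7). The intervals of these 2 overlapped. *Pdgfc* was highest elsewhere, at 171 CPM (121–236) in 60 cells led by *Cd209f*, *C6*, *Cd209d*, *Cd209g* and *Vsig4*, and at 111 CPM in the 1358 cells of sub-cluster 3, led by *Lyve1*, *Bmp2*, *Fcna*, *Fam43a* and *Cd163*. In sub-cluster 3 *Pdgfb* was at 19.1 CPM (15.1–23.9), and in sub-cluster 2 *Pdgfc* was at 23.9 CPM (19.4–29.1). Sub-cluster 4, led by the monocyte genes *Ly6c2*, *Plac8* and *Chil3* with *Hp* and *Gpr141*, held *Pdgfc* at 8.05 CPM (5.10–12.1) and *Pdgfb* at 27.3 CPM (21.6–34.1).

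Among Day 14 sub-clusters with at least 50 cells *Pdgfa* was highest in sub-clusters 1 (led by *Vegfa*, *Slamf7*, *Nlrp3*, *Ms4a7* and *Lpcat2*) and 3 (led by *Ccl7*, *Ednrb*, *Ccl2*, *Fcna* and *Folr2*), at 75.1 CPM (65.2–86.1) and 73.5 CPM (62.2–86.2). It was at 9.31 CPM (6.02–13.7) in sub-cluster 4, led by *Retnla*, *Ear2*, *Cd226*, *Lyz1* and *Fn1*. *Pdgfb* was highest in sub-cluster 2, led by the stress genes *Hspa1b*, *Hspa1a* and *Jun* with *Klf2* and *Hsph1*, at 67.5 CPM (57.6–78.5), and at 64.0 CPM (43.7–90.3) in sub-cluster 8, led by *Mmp12*, *Gpnmb*, *AA467197*, *Sdc1* and *Met*. *Pdgfc* was highest in sub-cluster 7, led by *Cd209f*, *Cd209d*, *Cd209b*, *C6* and *Lyve1*, at 75.2 CPM (47.1–114).

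**Figure D4:**
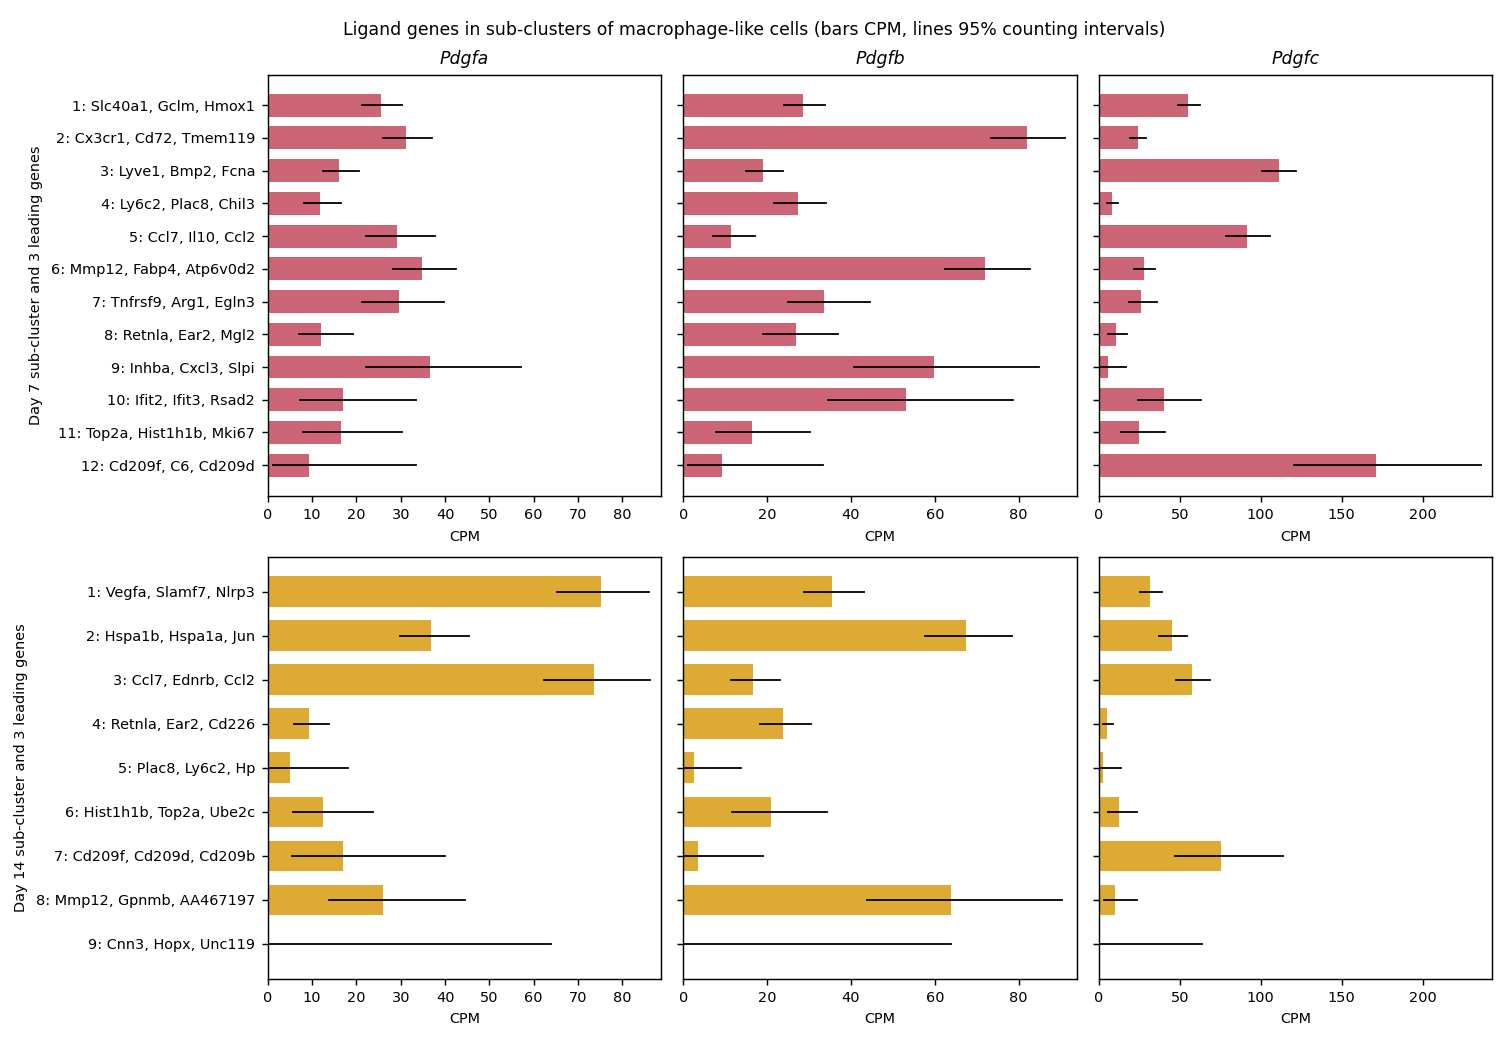
Levels of *Pdgfa*, *Pdgfb* and *Pdgfc* in CPM (bars, linear axis from 0) in sub-clusters of macrophage-like cells with at least 50 cells on Day 7 (upper row) and Day 14 (lower row), each named by its 3 leading genes, with 95% counting intervals (lines). On Day 7 *Pdgfb* reaches 81.9 CPM in the *Cx3cr1*-led sub-cluster and *Pdgfc* 111 CPM in the *Lyve1*-led one.

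*Pdgfrb* and *Pdgfrl* divided the fibroblast-like cells of Day 7 more than *Pdgfra* did. On Day 7 *Pdgfra* lay between 191 and 275 CPM in all 13 sub-clusters, of which 2 were led by macrophage or neutrophil genes, whereas *Pdgfrb* ranged from 75.2 to 267 CPM and *Pdgfrl* from 20.1 to 140 CPM. *Pdgfrb* was highest in sub-cluster 13 (66 cells, led by *Cyp26b1*, *Igfbp2*, *Crabp1*, *Grem1* and *Mmp11*) at 267 CPM (226–314), in sub-cluster 6 (led by *Spp1*, *Mmp13*, *Tagln*, *Col7a1* and *Myl9*) at 245 CPM (232–258) and in the cycling sub-cluster 8 (led by *Top2a*, *Ube2c*, *Mki67*, *Hist1h1b* and *Prc1*) at 169 CPM (159–181). *Pdgfrl* was lowest in sub-cluster 2 (led by *Edn1*, *Akr1c18*, *Krtdap*, *Dmkn* and *Pla1a*) at 20.1 CPM (16.7–24.0). *Pdgfc* reached 57.1 CPM (51.1–63.7) in sub-cluster 6 and 56.5 CPM (49.9–63.7) in sub-cluster 9, led by *Cxcl5*, *Nos2*, *Ereg*, *Serpinb2* and *Lif*. *Crabp1*, a leading gene of sub-cluster 13, is on the mesenchymal cell marker list.

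On Day 14 both receptors peaked in sub-cluster 8, led by *Coch*, *Ifitm1*, *Mylk*, *Enpp2* and *Robo2*, with *Pdgfra* at 326 CPM (302–352) and *Pdgfrb* at 288 CPM (265–312). Its median depth was 4634 UMIs per cell, below the 8629 to 12314 UMIs of the other sub-clusters. *Pdgfra* was lowest in sub-cluster 3, led by *Gal*, *Ppp1r14a*, *Wfdc12*, *Ndufa4l2* and *Gpha2*, at 89.5 CPM (82.1–97.3), where *Pdgfrb* stood at 150 CPM (140–160). *Pdgfrl* was highest in sub-clusters 10 (led by *C6*, *Igfbp3*, *Agt*, *Tnmd* and *Col4a4*) and 11 (led by *Thbs4*, *Myoc*, *Fxyd6*, *Cilp* and *Col8a1*), at 706 CPM (680–732) and 687 CPM (657–718). It was lowest in sub-cluster 4, led by *Dmkn*, *Smpd3*, *Cxcl13*, *Pla1a* and *Sbsn*, at 61.2 CPM (54.2–68.8). *Pdgfd* stood out in sub-cluster 13, led by *Prss35*, *Crabp1*, *Mmp11*, *Col7a1* and *Megf6*, at 52.4 CPM (40.1–67.4). Among these leading genes *Enpp2*, *Igfbp3* and *Crabp1* are on the mesenchymal cell marker list and *Ndufa4l2* is on the pericyte list. The part of those classes in the levels was not tested.

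**Figure D5:**
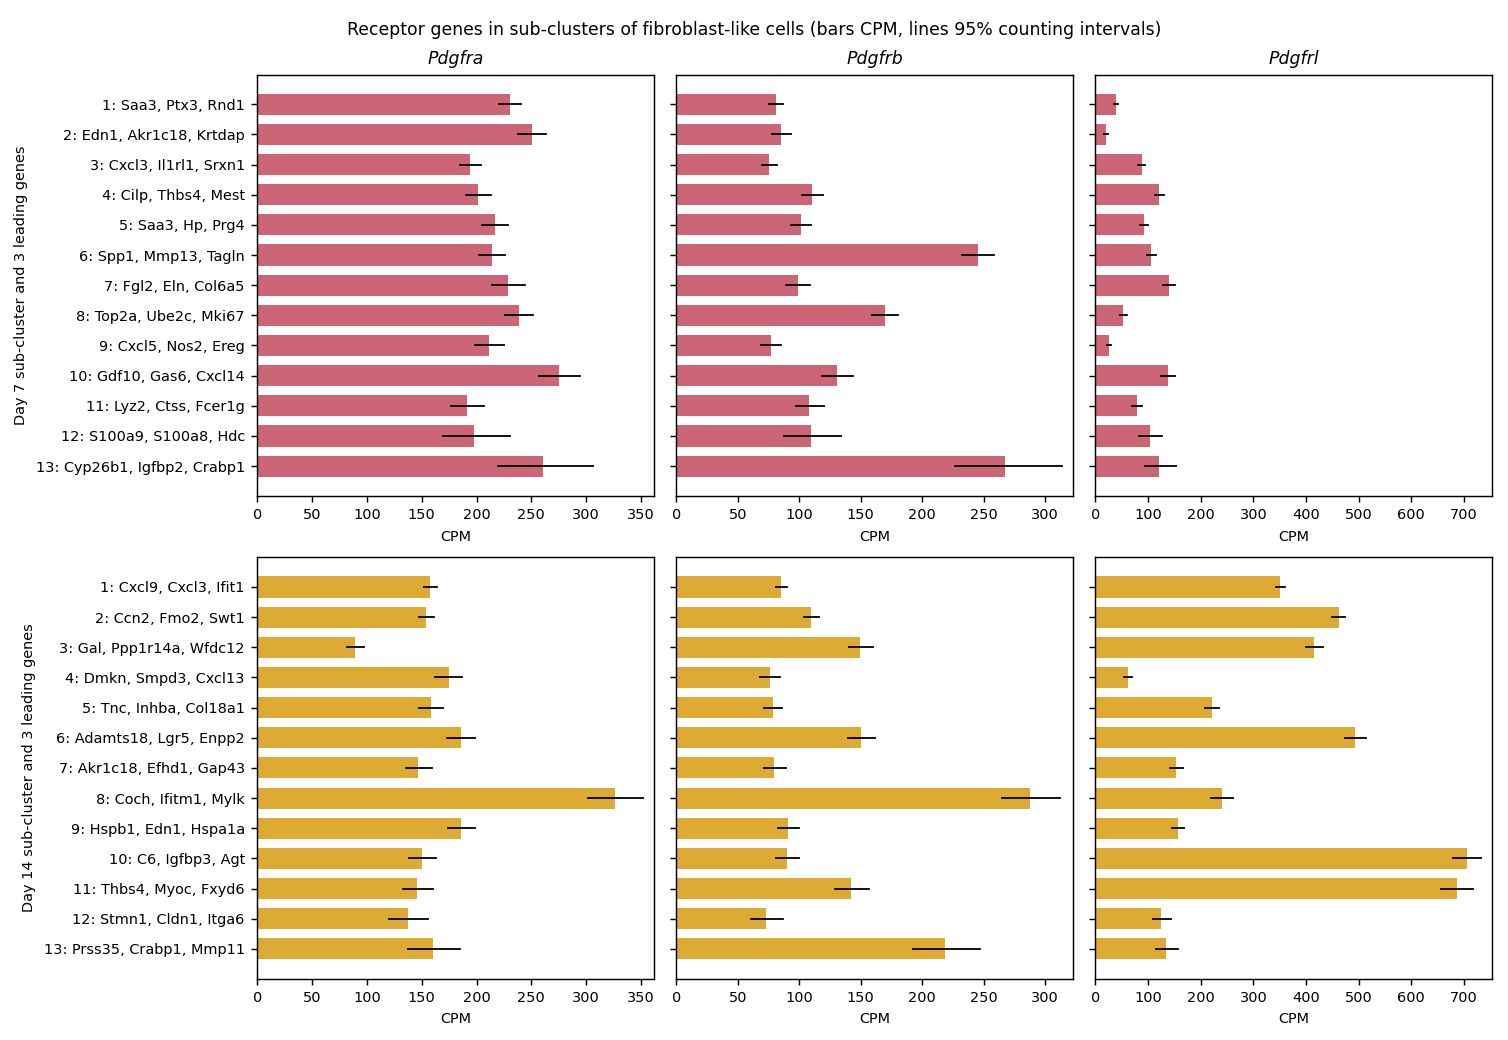
Levels of *Pdgfra*, *Pdgfrb* and *Pdgfrl* in CPM (bars, linear axis from 0) in sub-clusters of fibroblast-like cells with at least 50 cells on Day 7 (upper row) and Day 14 (lower row), each named by its 3 leading genes, with 95% counting intervals (lines). *Pdgfra* is even on Day 7 (191 to 275 CPM), and *Pdgfrl* spans 61.2 to 706 CPM on Day 14.

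Fibroblasts with smooth muscle actin (*Acta2*), the myofibroblasts that contract a wound, were set apart on Day 7 by at least 5 *Acta2* UMIs after thinning to 2000 UMIs. The 179 *Acta2*-high cells held 248 CPM of *Pdgfrb* against 110 CPM in the other 5684 fibroblast-like cells, a log2 ratio of 1.17 (1.05–1.30). *Pdgfa* was also higher (1.5, 1.13 to 1.85, 31.7 against 11.2 CPM), and *Pdgfc* was at 0.99 (0.75 to 1.23, 68.8 against 34.6 CPM). *Pdgfra* was at -0.45 (-0.60 to -0.30, 164 against 224 CPM), *Pdgfrl* at -0.03 (-0.25 to 0.19) and *Pdgfd* at -0.61 (-1.35 to 0.05). *Pdgfb* had 0 UMIs in *Acta2*-high cells, too few to compare. At least 2-fold apart were 18.1% of all genes, and *Pdgfa* and *Pdgfrb* of the PDGF genes besides *Pdgfb*. The median ratio of all genes was 0.17. *Pdgfrb* and *Pdgfa* were also the PDGF genes highest in pericyte-like cells on Day 7, at 928 and 295 CPM. The part of pericytes or of doublets with them among *Acta2*-high cells was not tested.

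In pericyte-like cells 16.1% of genes differed by at least 2-fold for Day 14 over Day 7. *Pdgfrb* was at -0.34 (-0.46 to -0.23) and *Pdgfa* at 0.31 (0.12–0.50), and *Pdgfrl* (49.0 against 15.9 CPM, 89 against 19 UMIs) was the 1 of 5 PDGF genes with enough UMIs past 2-fold. *Pdgfrl* had the 50 UMIs needed only through Day 14. Per fibroblast marker UMI it stood there at a log2 ratio of -0.04 (-0.35 to 0.26) to fibroblast-like cells. The median ratio of all genes was -0.13. In endothelial cell-like cells the share was 13.3%, and *Pdgfrl* and *Pdgfrb* were higher by at least 2-fold (3.2 and 1.25), with a median of -0.15 over all genes. *Pdgfrl* had 7 UMIs on Day 7 and 52 on Day 14 and *Pdgfrb* 26 and 50, so both had the 50 UMIs needed only through the higher day. *Pdgfrb* in this class was at 14.1 and 33.6 CPM, 1 cell held 42.3% of its Day 7 UMIs, and the fibroblast markers went from 5793 to 17127 CPM. Per fibroblast marker UMI it stood 1.32 (0.70–1.87) and 1.37 (0.94–1.77) log2 units above fibroblast-like cells on Days 7 and 14. The pericyte markers in this class summed to 334 and 419 CPM, against 9447 CPM in pericyte-like cells of Day 14, and their part in the *Pdgfrb* level was not tested.

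Of 31 genes of the pathway listed with the family, 10 activate or bind the ligands, 14 carry receptor signals and 7 limit them. In fibroblast-like cells for Day 14 over Day 7, 2 of the 30 with at least 50 UMIs were higher by at least 2-fold and 1 was lower, against 5.62% higher and 9.33% lower among all genes. These were the Sprouty inhibitors *Spry1* (1.80, 17.7 against 5.1 CPM) and *Spry4* (1.75, 2.8 against 0.8 CPM), and the receptor-type phosphatase *Ptprj* (-1.15, 10.1 against 22.5 CPM). None of the 14 signalling genes passed 2-fold in that comparison. For Day 7 over Day 3, 1 was higher and 5 were lower (10.4% and 9.48% of all genes), among them the proprotein convertases *Pcsk6* (1.17, 31.1 against 13.8 CPM) and *Pcsk5* (-1.65, 252 against 790 CPM) and the urokinase gene *Plau* (-1.05, 20.6 against 42.8 CPM).

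In macrophage-like cells 2 pathway genes of 27 were higher and 3 lower for Day 7 over Day 3, where 8.98% of all genes were higher and 4.62% lower. For Day 14 over Day 7, 0 were higher and 3 lower, against 4.04% and 5.43% of all genes. The matrix gene *Sparc*, whose protein binds PDGF, was higher on Day 7 than on Day 3 (3.04, 516 against 62.8 CPM), as was *Plat* (1.16, 20.3 against 9.1 CPM), which encodes the tissue plasminogen activator that cuts PDGF-C. *Sparc* is abundant in fibroblast-like cells, at 31556 CPM on Day 14. In macrophage-like cells the fibroblast markers moved with both genes, from 409 CPM on Day 3 to 3674 CPM on Day 7. Their part in the ratios of *Sparc* and *Plat* was not tested. Thrombospondin 1 (*Thbs1*) was lower on each later day, at 4021, 1855 and 747 CPM. On Day 14 *Dusp6*, a phosphatase of the mitogen-activated kinases downstream of the receptors, was at 41.9 against 127.6 CPM on Day 7 (-1.61).

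Between classes on Day 14, 11 of 30 pathway genes were higher and 6 lower in pericyte-like than in fibroblast-like cells, against 18.3% and 17.7% of all genes. The feedback genes were the group in which most were higher, 5 of 7, led by *Spry4* (6.26, 215 against 2.8 CPM), *Spry1* (2.74, 118 against 17.7 CPM) and *Spry2* (2.01, 208 against 51.7 CPM). *Pcsk5* (-2.89) and *Plat* (-1.96) were lower. In endothelial cell-like against macrophage-like cells 10 of 30 were higher and 7 lower (20.6% and 17.6% of all genes), with *Spry4* (7.11), *Pcsk6* (6.87) and *Spry1* (4.46) higher and *Ptprj* (-4.17) lower. In epithelial cell-like against fibroblast-like cells 3 of 31 were higher and 8 lower (22.4% and 23.2% of all genes), and the matriptase gene *St14*, whose product can cut PDGF-D, led those that were higher (6.21, 21.1 against 0.3 CPM).

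Over Day 14 against Day 7, 2 of 28 pathway genes were higher and 2 lower in pericyte-like cells (7.29% and 8.81% of all genes), with *Src* (-1.67, 12.1 against 38.6 CPM) and *Plat* (-1.35, 81.0 against 206 CPM) lower. In endothelial cell-like cells 0 of 27 were higher and 1 was lower (5.56% and 7.74% of all genes), the docking gene *Gab1* (-1.13, 32.3 against 70.6 CPM). In *Acta2*-high against other fibroblast-like cells 1 of 30 was higher, *Dusp6* (1.11, 15 against 6.9 CPM), and 4 were lower, led by *Pcsk6* (-3.61, 2.6 against 32.2 CPM) and *Spry2* (-1.59, 16.7 against 50.5 CPM), beside 7.21% higher and 10.9% lower among all genes.

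The genes whose levels ran most like each PDGF gene were found over the 21 sums of cells by class and day with at least 50 cells, among 6920 genes. For *Pdgfra* they were *Scara3*, *Dclk1* and *Col16a1*, with Pearson correlations of 0.973, 0.965 and 0.95 on the log2(CPM + 1) scale. For *Pdgfrb* they were *Mark1*, *Adamts12* and *Cacna2d1* (0.965, 0.961 and 0.956), and for *Pdgfrl* *C1qtnf2*, *Cpz* and *Osr2* (0.922, 0.922 and 0.917). Those of the ligands were lower in part, led by *Itsn1* for *Pdgfc* (0.921), *Cxcl12* for *Pdgfd* (0.872), *Crim1* for *Pdgfa* (0.855) and *F11r* for *Pdgfb* (0.847). Next came *Mon2* and *Psd3*, *Slc43a3* and *Arhgap29*, *Plec* and *Atp2a2*, and *Pon2* and *Smagp*, respectively. The sums of a day share a library, so these are descriptions and not tests.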

How the data were processed

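The authors prepared 1 droplet library per day (Chromium 3′ chemistry, version 3.1) from dissociated and pooled wounds and deposited raw UMI counts per gene and barcode, made with Cell Ranger 6.0.0 on mm10 per the labels. The annotation release was not given in the sources used here. Barcodes under 200 genes or 500 UMIs, or over 10% mitochondrial UMIs, were dropped, and 74, 1932 and 958 likely doublets were removed by a score from simulated doublets. The 3 libraries were clustered together into 34 clusters (2000 variable genes, 30 components, Leiden resolution 1; Python 3.11.15, leidenalg 0.10.2) without the PDGF and pathway genes. Clusters were named from marker lists, by a rule that was changed once the clusters had been looked at, but before PDGF values were computed. Sub-clusters were made within a class and day.

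UMIs were summed per class and day. Intervals are exact Poisson (CPM), exact conditional binomial (ratios) and Clopper-Pearson (shares) and cover counting error only. They were checked on simulated data. With 1 library per day, genes with at least 50 UMIs over both sides and a 2-fold difference were counted. Other scalings, cell filters, doublet limits, cluster settings and class assignments were tried. Named genes were all 7 members, the pathway genes with the largest differences, and the 3 genes most correlated with each member among those reaching 50 CPM. Gene positions came from GENCODE M21. The members and lists were chosen with earlier results of these data known.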

Additional observations from a re-analysis of the deposited data

Results flagged for a closer look

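The genes *Pdgfc*, *Pdgfra*, *Pdgfa* and *Pdgfrb* differed in direction between cell classes over the same pair of days, with intervals that excluded 0 on both sides on the CPM scale, and these differences between classes were not tested. *Pdgfc* on Day 7 over Day 3 had a log2 ratio of 1.09 in macrophage-like and -0.29 in fibroblast-like cells, a difference of 1.38. The fibroblast-like value was -0.06 (-0.17 to 0.05) when scaled without the 50 most abundant genes, and its intervals held 0 within clusters 5 and 20, so the opposite direction did not hold there. *Pdgfra* over the same days had a ratio of 3.30 (1.63 to 5.65) in neutrophil-like and -0.22 in fibroblast-like cells, a difference of 3.52, and its neutrophil-like count was 3 UMIs on Day 3 and 33 on Day 7. The fibroblast-like value was 0.01 (-0.04 to 0.06) when scaled without the 50 most abundant genes, which removed the opposite direction. The fibroblast markers in neutrophil-like cells moved with it, from 832 to 10514 CPM, and per UMI of these markers *Pdgfra* stood at a log2 ratio of 0.34 (-0.20 to 0.83) to fibroblast-like cells on Day 7. The part of these markers' RNA in the result was not tested. *Pdgfa* on Day 14 over Day 7 had a ratio of 1.59 (0.38 to 2.96) in T cell-like and -0.92 (-1.44 to -0.35) in epithelial cell-like cells, a difference of 2.51. They were the furthest apart of 8 classes, of which 5 had intervals above 0 and 2 had intervals below it. The T cell-like count was 8 UMIs on Day 7 and 23 on Day 14, while in that class the fibroblast markers went from 6752 to 16114 CPM and the epithelial markers from 23.6 to 273 CPM, and their part was not tested. Within T cell-like cells cluster 31 went from 4 of 389 to 65 of 310 cells, and within the 54 and 718 epithelial cell-like cells the basal cluster, which holds more *Pdgfa*, went from 75.9% to 58.2%. *Pdgfrb* over these days had a ratio of 1.52 (0.53 to 2.74) in mesenchymal cell-like and -0.34 in pericyte-like cells, a difference of 1.86, with 8 UMIs in mesenchymal cell-like cells on Day 7. In mesenchymal cell-like cells the macrophage markers went from 2795 to 303 CPM and the fibroblast markers from 6260 to 9523 CPM. Their part was not tested.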

How the results depend on the processing

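Each day has 1 library, so no difference between days can be told apart from a difference between libraries, and Day 3 values of pericyte-like, endothelial cell-like and mesenchymal cell-like cells rest on 10, 13 and 4 cells. No paired analysis was possible because the days share no replicate. *Pdgfrb* in fibroblast-like cells for Day 14 over Day 7 (-0.07) turned to 0.12 with scaling by the median of ratios, 0.052 as the mean CPM per cell and 0.16 with at least 500 genes per cell, and was -0.18 with each library clustered alone. In the same comparison *Pdgfra* (-0.48) was -0.29, -0.40 and -0.55, and *Pdgfrl* (2.19) was 2.38, 2.09 and 2.24, with the median of ratios, the mean per cell and separate clustering, and *Pdgfrl* was 2.31 without clusters 12 and 13, an alternative chosen after seeing the data. For Day 7 over Day 3 *Pdgfra* (-0.22) was 0.0096 when scaled without the 50 most abundant genes. *Pdgfrb* in pericyte-like over fibroblast-like cells (2.75) was 2.52 without those 50 genes, 2.31 with the median of ratios, 2.37 with doublets kept, 2.86 with separate clustering and 2.93 without clusters 12 and 13. *Pdgfb* in endothelial cell-like over macrophage-like cells (1.95) was 1.58 with the median of ratios, and *Pdgfa* in epithelial cell-like over fibroblast-like cells (2.41) was 2.17 without the 50 genes and 1.98 with the median of ratios. *Pdgfra* in *Acta2*-high cells (-0.45) was -0.24 with at least 2 *Acta2* UMIs. Shares of cells with a UMI depended on depth, with *Pdgfra* in 7.91% of Day 14 fibroblast-like cells at 500 UMIs, 14.6% at 1000 and 71.3% unthinned, and *Pdgfrb* in 29.0%, 46.2% and 85.3% of Day 14 pericyte-like cells. With at least 10 UMIs in place of 50, the genes past 2-fold were 20.5% and 15.1% in macrophage-like cells (Day 7 over Day 3 and Day 14 over Day 7), 24.7% in pericyte-like and 20.9% in endothelial cell-like cells. Over 13 alternatives *Pdgfc* in fibroblast-like cells for Day 14 over Day 7 lay between -1.40 and -1.15, and over 11 *Pdgfb* in macrophage-like cells for Day 7 over Day 3 lay between 1.05 and 1.35. The cause of these differences was not tested.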
